A study of Mus musculus with 58 samples.

Results

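The daily expression of 8 genes of the photoreceptor output synapse and of photoreceptor coupling was followed in control and diabetic mouse retinas. The genes were Gjd2, Cacna1f, Cacna2d4, Cabp4, Ctbp2, Bsn, Slc17a7 and Elfn1, taken by symbol from a table of 52459 rows, in which each of them had a single row. A gene was called expressed when its median over all libraries was above 4 counts after division by library size factors, which 19120 genes were, all 8 of these among them.

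Retinas came from male mice of 4 months that carried the heterozygous Ins2 Akita allele on the C57BL/6 background, here called diabetic, and from their wild-type male littermates, here called control. The allele misfolds insulin in the pancreatic beta cells and produces a hyperglycemia that resembles type 1 diabetes, so it models insulin loss and not insulin resistance. All mice were kept under 12 h of light and 12 h of darkness, and single retinas were collected at zeitgeber times (ZT, hours after lights on) 1, 5, 9, 13, 17 and 21, the night points under dim red light. The 30 control and 28 diabetic libraries fell into 12 groups of 4 to 6.

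Photoreceptors release glutamate continuously in darkness, and the ribbon, a plate of protein that tethers vesicles at the active zone, supplies this release. Calcium enters through L-type channels beside the ribbon, and light closes them by hyperpolarizing the cell. Neighbouring rods and cones are also joined by gap junctions, and their coupling is known to vary with the time of day under the control of dopamine and adenosine.

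The total of counted reads per library ranged from 7773117 to 22147398, with a median of 15406440. Of 113 pairs of libraries within groups, the closest pair still differed by 1.82 times the sampling variance, so no pair was treated as a duplicate. All 8 rod markers and all 7 cone markers were expressed in these whole retinas. The summed count of 6 lens markers reached 27972 to 42204 in 3 control libraries, replicate 6 at ZT1, replicate 5 at ZT17 and replicate 2 at ZT21, and was at most 963.6 in the other 55. Of 5 hemoglobin and red cell markers none was expressed. In bulk tissue, fewer cells of a type and less RNA per cell cannot be told apart.

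Compared per kilobase of exon, the genes fell into a wide range of levels. Slc17a7, which encodes the vesicular glutamate transporter VGLUT1, was the highest, with a normalized count per kilobase of 4581 ± 512 in control (SD, n = 30) and 4297 ± 449 in diabetic retinas (SD, n = 28). It was followed by Cacna2d4 (1152 ± 98.5 in control and 1157 ± 90.7 in diabetic), the auxiliary alpha2delta4 subunit of the photoreceptor calcium channel. Ctbp2, whose locus encodes the ribbon protein RIBEYE and the co-repressor CtBP2, had 817 ± 91.6 and 787 ± 74.2. Cacna1f, the pore-forming subunit of that channel, had 751 ± 70.6 and 744 ± 78.2. The order of this last pair was not firm, since Ctbp2 was above Cacna1f in 38 of 58 libraries.

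The lower end held Gjd2, which encodes the gap junction protein connexin 36, at 461 ± 35.3 and 469 ± 40.9 per kilobase, and Elfn1, an adhesion protein of the rod terminal that binds the mGluR6 receptor of bipolar cells across the cleft, at 414 ± 93.2 and 435 ± 85.02. Gjd2 was above Elfn1 in 42 of 58 libraries, so these neighbours overlapped as well. Bsn, the scaffold Bassoon that anchors the ribbon, had 307 ± 47.2 and 301 ± 42.2. Cabp4, a calcium-binding protein that shifts opening of the channel to the photoreceptor's dark potential, was lowest at 142 ± 21.7 and 138 ± 17.2. Every other step in the order held in 58 of 58 libraries. The genes are also used outside photoreceptors, Gjd2 in AII amacrine and cone bipolar cells and Bsn and Ctbp2 in other ribbon and conventional synapses, and whole-retina counts sum over these cells.

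**Figure D1:**
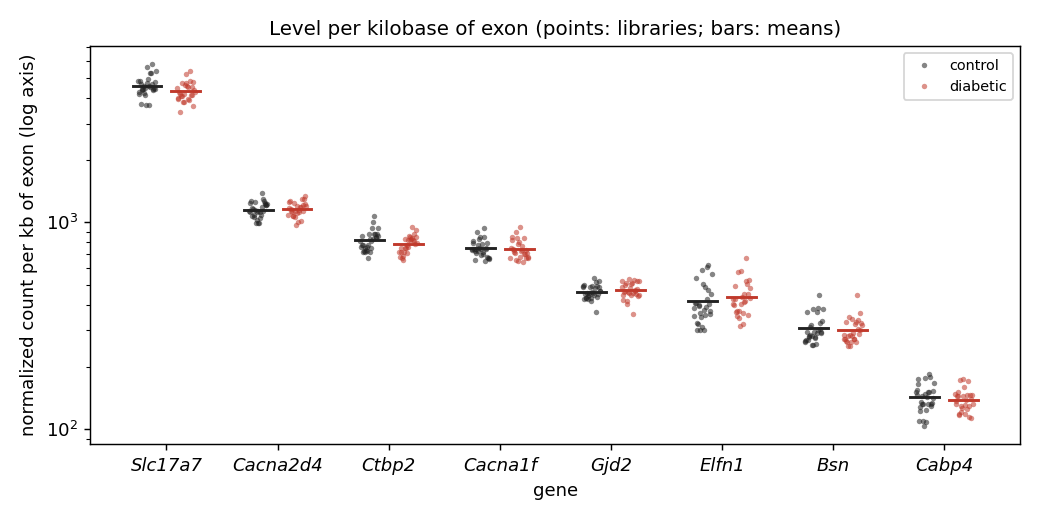
Normalized count per kilobase of exon (log axis) for the 8 genes in each control (black) and diabetic (red) library, with bars at the means. Slc17a7 stood highest at 4581 in control and Cabp4 lowest at 142, and control and diabetic libraries overlapped for every gene.

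In GRCm38 coordinates the genes lie on 7 chromosomes. Their identifiers in the annotation Gencode M21, matched by symbol, are ENSMUSG00000068615.4 (Gjd2), ENSMUSG00000031142.17 (Cacna1f), ENSMUSG00000041460.14 (Cacna2d4), ENSMUSG00000024842.8 (Cabp4), ENSMUSG00000030970.16 (Ctbp2), ENSMUSG00000032589.14 (Bsn), ENSMUSG00000070570.5 (Slc17a7) and ENSMUSG00000048988.8 (Elfn1). Gjd2 spans 114009601 to 114013619 on the minus strand of chromosome 2, Ctbp2 spans 132987563 to 133124354 on the minus strand of chromosome 7, and Slc17a7 lies on the plus strand of the same chromosome at 45163949 to 45176142. The calcium channel genes lie on chromosome X (Cacna1f, 7607083 to 7635196, plus strand), chromosome 6 (Cacna2d4, 119236526 to 119352407, plus strand) and chromosome 19 (Cabp4, 4135423 to 4144033, minus strand). Bsn lies on chromosome 9 at 108096022 to 108190384 on the minus strand, and Elfn1 on chromosome 5 at 139907943 to 139974722 on the plus strand. The exons of Gjd2 share 57 bases with an antisense transcript, A530058N18Rik, which had a mean of 1393 normalized counts. The strand setting of the counting is not given in the sources used here, so some reads of these overlapping bases could belong to either gene. Ctbp2 shares 314 exon bases with an annotated exon of Fgfr2 on the same strand, and Fgfr2 had a mean of 52.2 counts. The gene-level count of Ctbp2 does not separate the RIBEYE transcript from the CtBP2 transcript.

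The windows around the start sites, from 250 bases before to 50 bases after, are shown for Ctbp2, which was called rhythmic in both genotypes and has starts at different places in RefSeq, and for Gjd2 and Cacna1f, which had no rhythm call. Capitals mark matches to the motifs named after them.
Ctbp2, upstream start (chr7:133081811-133082110, minus strand): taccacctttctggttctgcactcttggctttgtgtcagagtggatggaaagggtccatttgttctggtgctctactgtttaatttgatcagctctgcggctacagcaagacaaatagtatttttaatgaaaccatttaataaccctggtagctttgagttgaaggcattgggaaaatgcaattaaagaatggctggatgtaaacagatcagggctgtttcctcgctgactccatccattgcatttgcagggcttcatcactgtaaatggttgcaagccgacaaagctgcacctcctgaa
Ctbp2, downstream start (chr7:133015198-133015497, minus strand): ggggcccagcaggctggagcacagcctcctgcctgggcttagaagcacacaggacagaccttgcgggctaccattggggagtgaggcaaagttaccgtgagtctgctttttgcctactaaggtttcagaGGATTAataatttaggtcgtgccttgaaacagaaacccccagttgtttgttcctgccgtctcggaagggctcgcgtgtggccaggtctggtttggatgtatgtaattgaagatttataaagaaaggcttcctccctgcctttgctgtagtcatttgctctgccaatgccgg
Gjd2 (chr2:114013570-114013869, minus strand): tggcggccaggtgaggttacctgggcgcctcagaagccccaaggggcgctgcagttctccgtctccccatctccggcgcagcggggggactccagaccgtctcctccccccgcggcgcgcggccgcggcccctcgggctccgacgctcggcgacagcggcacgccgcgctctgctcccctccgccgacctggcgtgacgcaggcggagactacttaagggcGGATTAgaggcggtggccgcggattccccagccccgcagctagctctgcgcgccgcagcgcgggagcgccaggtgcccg
Cacna1f (chrX:7606853-7607152, plus strand): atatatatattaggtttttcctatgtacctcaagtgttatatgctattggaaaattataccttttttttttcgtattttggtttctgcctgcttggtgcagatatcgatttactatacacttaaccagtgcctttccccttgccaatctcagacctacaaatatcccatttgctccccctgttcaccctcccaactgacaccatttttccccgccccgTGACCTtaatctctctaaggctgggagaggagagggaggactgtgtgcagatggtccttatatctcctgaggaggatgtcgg

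The sequences are from RefSeq, build GRCm38.p6, which held windows for 6 of the 8 genes and none for Cacna2d4 and Cabp4. Both strands were searched for the E-box CACGTG, the CRX-type homeobox motif TAATCC, the NRL-type motif TGCTGA, the ROR-type motif AGGTCA, the D-box TTATGTAA and the cAMP response element TGACGTCA, none of which overlapped another in these windows. The upstream Ctbp2 window held none of the 6, and the downstream window held the CRX-type motif on the opposite strand (GGATTA), beginning 121 bases before the start. Gjd2 held the same motif 29 bases before its start. Cacna1f and Elfn1 held the ROR-type motif on the opposite strand (TGACCT), 32 and 33 bases before their starts. The windows of Bsn and Slc17a7 held none. Of 32851 windows of the same length over all genes, 7.06% held the CRX-type motif and 16.3% the ROR-type motif, and these matches are a description of the letters only.

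The first question was which of the genes followed the time of day. A gene was called rhythmic when an empirical JTK_CYCLE test, a rank correlation of the series with 24 h waveforms judged against shuffled series, gave an unadjusted permutation p under 0.05 and the highest library was more than 1.25-fold the lowest. Cacna2d4, Cabp4 and Ctbp2 passed in control retinas, 3 of 8 genes, where 21.8% of all expressed genes passed. Cacna2d4 and Ctbp2 passed in diabetic retinas, 2 of 8, where 23.9% of all genes passed. With the p adjusted over all expressed genes by Benjamini-Hochberg, Cacna2d4 and Ctbp2 remained in control (8.23% of all genes) and Ctbp2 in diabetic retinas (10.3%). The edgeR cosine test called Cacna2d4 and Ctbp2 in control and Ctbp2 in diabetic retinas, beside 12.2% and 14.3% of all genes, and the edgeR test of any difference among the 6 time points called the same genes, beside 9.06% and 10.2%. When the fold was taken between time point means, Ctbp2 alone of the 8 was called in control and none in diabetic retinas, beside 13.2% and 14.2%.

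Ctbp2 had the firmest rhythm, low in the middle of the day and high at night. In control retinas the 6 libraries at ZT5 lay between 4469 and 4666 normalized counts with a median of 4518, and the 5 libraries at ZT17 were 5303, 5443, 5459, 6247 and 6698. All ZT17 libraries were above all ZT5 libraries. The mean was 4533 ± 73.9 (SD, n = 6) at ZT5 and 5830 ± 611 (SD, n = 5) at ZT17, a ratio of 1.29. The 4 libraries at ZT21, between 5231 and 5827, were likewise above every library at ZT5. A cosine fit placed the peak at ZT17.9 ± 0.61 h (SE) with an amplitude of 11.9 ± 1.84% of the mean, with a permutation p of 2.3e-05 and an adjusted p of 0.002.

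In diabetic retinas Ctbp2 followed a similar course. The libraries at ZT1 were 4180, 4249, 4483, 4486 and 4695, those at ZT5 were 4095, 4269, 4471, 4670 and 5147, and those at ZT17 were 5039, 5078, 5221 and 5921. The lowest ZT17 library was below the highest ZT5 library, so those groups overlapped, whereas ZT17 stood above ZT1 without overlap. The peak was at ZT16.3 ± 0.64 h and the amplitude 10.02 ± 1.74% of the mean, with a permutation p of 0.000218 and an adjusted p of 0.00689. The call held in 30 of 30 control and 28 of 28 diabetic series with a library left out, and in 6 of 6 series of each genotype with a time point left out. Measured between time point means in place of single libraries, the highest-to-lowest ratio was 1.29 in control and 1.20 in diabetic, so the 1.25-fold limit was passed in control alone.

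Of the calcium channel genes, Cacna2d4 was rhythmic with a late-night peak. Control libraries at ZT9 were 9381, 9428, 9694, 10570 and 10710, and those at ZT21 were 11476, 11476, 11677 and 11740. The ZT21 libraries were all above the ZT9 libraries and differed little from one another. The peak was at ZT20.7 ± 0.71 h and the amplitude 8.52 ± 1.66%, with a permutation p of 5.9e-05 and an adjusted p of 0.00327. The diabetic libraries gave 5.86 ± 1.79% and ZT21.3 ± 1.22 h, with a permutation p of 0.0213 and an adjusted p of 0.122. This diabetic call was absent without replicate 3 at ZT9 (p = 0.054) or replicate 3 at ZT21 (p = 0.0551) by the permutation test. It was also absent without the libraries of ZT1, ZT9 or ZT21, with permutation p-values of 0.0536, 0.0821 and 0.173.

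Cabp4 was at the limit of the rhythm call in control retinas. Its libraries were 512, 530, 546, 584 and 617 at ZT1 and between 384 and 506 at ZT5, without overlap, while those at ZT9 spread from 364 to 622. The amplitude was 10.4 ± 3.67% with a peak at ZT20.9 ± 1.29 h, a permutation p of 0.0399 and an adjusted p of 0.193. The call held in 17 of 30 series with a library left out and in 2 of 6 with a time point left out. It was absent without the libraries of ZT1, ZT5, ZT13 or ZT17, with permutation p-values from 0.057 to 0.158. In diabetic retinas the amplitude was 2.23 ± 3.50% and the permutation p 0.87. Cacna1f, which forms the pore of the channel that these proteins regulate, gave a control permutation p of 0.478 and a diabetic one of 0.187, with amplitudes of 2.96 ± 2.52% and 5.42 ± 2.68%.

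The remaining genes were not called. Bsn and Elfn1 had their highest mean at ZT17 in each genotype, with control amplitudes of 8.78 ± 3.69% and 13.2 ± 5.37% and diabetic amplitudes of 8.44 ± 3.51% and 9.36 ± 5.05%. Their permutation p-values were 0.0723 and 0.0542 in control and 0.187 and 0.0677 in diabetic retinas. With the GC slope of each library removed, a measure of how its counts depend on the base composition of the genes, the amplitudes were 3.11 ± 1.59% and 5.66 ± 2.82% in control and 4.97 ± 1.72% and 5.74 ± 2.31% in diabetic libraries, and Elfn1 was then called in the diabetic ones (permutation p = 0.0164). Slc17a7 had amplitudes of 5.73 ± 2.73% and 4.64 ± 2.80%, with permutation p-values of 0.181 and 0.335, and 2.09 ± 1.49% and 3.50 ± 1.94% with the slope removed.

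Gjd2 was not called in either genotype. The 6 control means lay between 1261 at ZT5 and 1396 at ZT21, and the 6 diabetic means between 1314 at ZT13 and 1381 at ZT21. Its amplitude in control libraries was 3.02 ± 1.96% and in diabetic libraries 1.48 ± 2.39%, with permutation p-values of 0.0948 and 0.947. With the GC slope removed it was 4.86 ± 1.53% and 2.67 ± 2.16%, and the control series was called (permutation p = 0.00901). The highest-to-lowest ratio of its time point means was 1.11 for control and 1.05 for diabetic libraries.

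**Figure D2:**
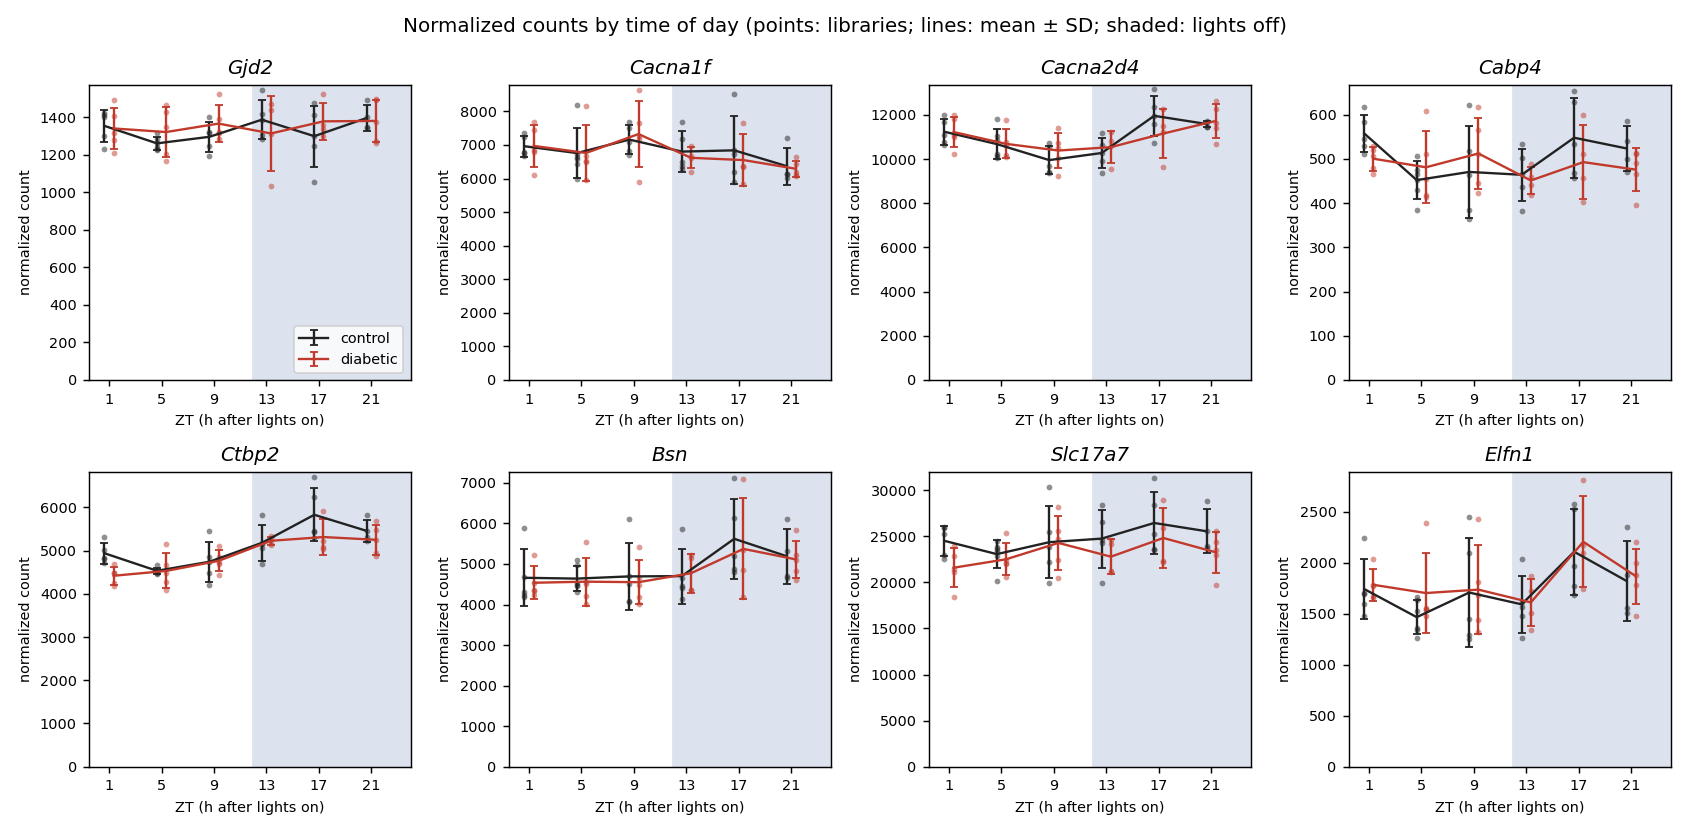
Normalized count against zeitgeber time for each of the 8 genes, with points for single libraries, lines and bars for the mean ± SD of 4 to 6 libraries, control in black and diabetic in red, and the dark phase shaded. Ctbp2 was lowest in the light phase and highest at ZT17 in each genotype, whereas Gjd2 stayed between means of 1261 and 1396.

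Midnight was then compared with midday, ZT17 against ZT5, in 1 edgeR quasi-likelihood fit of the 12 groups adjusted over the 19120 genes by Benjamini-Hochberg. In control retinas Ctbp2 and Elfn1 were higher at ZT17, 2 of 8 genes, where 7.42% of all genes were higher, 7.66% lower and 15.1% either. In diabetic retinas Ctbp2 alone of the 8 was higher, where 3.63% of all genes were higher, 3.73% lower and 7.36% either. No gene of the 8 was lower at ZT17 in either genotype by this test.

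The log2 fold change of Ctbp2 was 0.35 ± 0.06 (SE) in control retinas, with an edgeR adjusted p of 3.03e-05, and 0.22 ± 0.07 in diabetic retinas, with an edgeR adjusted p of 0.0253. The diabetic call was lost without replicate 1 or 2 at ZT5 or replicate 3 at ZT17, each in the diabetic group, with edgeR adjusted p-values of up to 0.187. It was also lost without the filter on low counts. Summed over 8 bipolar cell markers, the same control libraries held 27599 to 30888 counts at ZT17 and 23344 to 25831 at ZT5, and the diabetic libraries 26206 to 28901 and 21484 to 24543, without overlap in either genotype. Summed over 8 rod markers, the groups overlapped, at 612430 to 783300 and 603630 to 674950 in control retinas. In diabetic retinas they also overlapped, at 571500 to 681160 and 547080 to 731300. Summed over 6 markers of Muller glia, control libraries held 49407 to 55221 counts at ZT17 and 40646 to 46153 at ZT5, without overlap. The diabetic libraries held 47530 to 57099 and 38079 to 50458, with overlap. The sum over 5 endothelial markers was lower at ZT17 in control libraries, 3033.1 to 3285.8 against 3366.6 to 3700.5, without overlap. Summed over 6 markers of the pigment epithelium, control libraries held 1684 to 2941 counts at ZT17 and 485 to 2129 at ZT5, with overlap, and diabetic libraries 988 to 2639 and 339 to 499, without overlap. The part of these markers in the Ctbp2 result was not tested.

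Elfn1 in control retinas had 1264 to 1668 counts with a median of 1446 in the 6 libraries at ZT5, and 1685, 1777, 1974, 2531 and 2582 at ZT17. These groups did not overlap, although the lowest ZT17 library lay just above the highest ZT5 library. The log2 fold change was 0.51 ± 0.16 (SE) with an edgeR adjusted p of 0.0195, and the call was lost without replicate 2 at ZT5 or replicate 1 or 3 at ZT17, with edgeR adjusted p-values of up to 0.0975. It was also lost with the library GC slope as a covariate (0.19 ± 0.08, edgeR adjusted p = 0.17), and the highest ZT17 libraries, replicates 1 and 3, had the largest slopes of the group, 0.354 and 0.448. In diabetic retinas the libraries were 1476, 1540, 1548, 1562 and 2397 at ZT5 and 1744, 2096, 2175 and 2814 at ZT17. A single ZT5 library lay inside the ZT17 range, and the log2 fold change was 0.36 ± 0.17 with an edgeR adjusted p of 0.201. Without that library, diabetic replicate 4 at ZT5, the value was 0.52 with an edgeR adjusted p of 0.0479.

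For the other 6 genes in control retinas the log2 fold changes of ZT17 over ZT5 were 0.27 ± 0.11 for Bsn, 0.27 ± 0.11 for Cabp4, 0.19 ± 0.09 for Slc17a7, 0.16 ± 0.06 for Cacna2d4, 0.04 ± 0.07 for Gjd2 and 0.01 ± 0.08 for Cacna1f. Their edgeR adjusted p-values lay between 0.0707 and 0.954, and the lowest, that of Cacna2d4, was 0.0424 by DESeq2. With the same covariate the values were 0.03 ± 0.06 for Bsn, 0.06 ± 0.07 for Cabp4, 0.02 ± 0.06 for Slc17a7 and 0.12 ± 0.06 for Gjd2. Taken over all expressed genes, the median was -0.0276 for control and -0.015 for diabetic libraries. The difference of this contrast between genotypes was tested directly and passed for none of the 8 genes and none of the 19120, with unadjusted edgeR p-values from 0.142 to 0.869 for the 8 and 732 genes of all at an unadjusted p under 0.05. For Ctbp2 the difference was -0.13 ± 0.09 on the log2 scale, with an interval of 2 SE from -0.31 to 0.05.

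**Figure D3:**
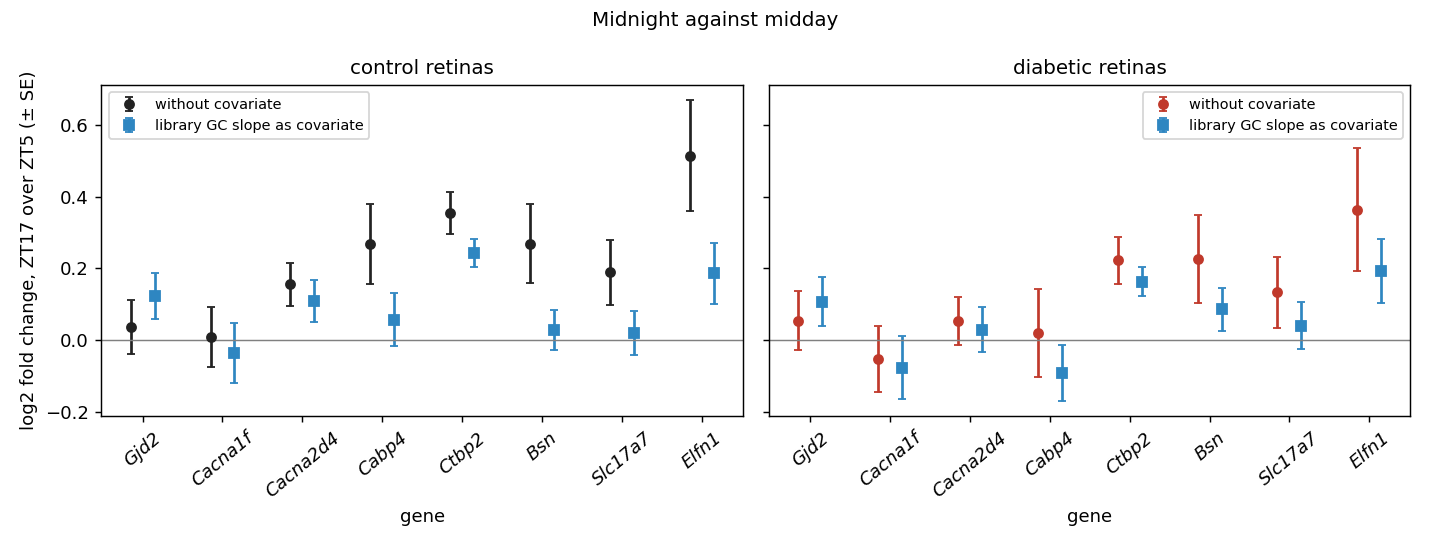
Log2 fold change of ZT17 over ZT5 (± SE) for the 8 genes in control (left) and diabetic (right) retinas, without a covariate (circles) and with the library GC slope as a covariate (blue squares). With the covariate the values of Ctbp2, Cacna2d4, Bsn, Slc17a7 and Elfn1 were smaller in each genotype, and that of Cabp4 in control retinas, and Ctbp2 went from 0.35 to 0.24 in control and from 0.22 to 0.16 in diabetic retinas.

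Diabetes was next compared with control for the rhythm as a whole. The edgeR test of a genotype difference in the 24 h cosine called none of the 8 genes and none of the 19120 expressed genes at an adjusted p under 0.05, with 657 of all genes at an unadjusted p under 0.05, and a rank-based regression of the same difference also called none. Among the 8 genes the smallest unadjusted edgeR p-values were 0.0622 for Cabp4 and 0.148 for Ctbp2. That Cabp4 was called rhythmic in control and not in diabetic retinas is therefore not shown to be a difference between them.

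The level of the genes was compared between genotypes over all time points and at each of them. None of the 8 genes differed over all time points, where 572 genes or 2.99% of all expressed genes did, 1.58% higher and 1.41% lower in diabetic retinas. Slc17a7 was nearest, with 19889 to 31371 counts and a median of 24093 in 30 control libraries, and 18402 to 28914 with a median of 22690 in 28 diabetic libraries. The ranges overlapped over most of their length, while the diabetic mean was the lower at 6 of 6 time points. The log2 fold change was -0.09 ± 0.04 (SE), a difference of -6.22%, with an unadjusted edgeR p of 0.0229 and an adjusted p of 0.227. Rod markers were summed beside it, at 540470 to 797060 with a median of 649310 in control and 527360 to 731300 with a median of 616100 in diabetic libraries. The medians of summed cone and bipolar cell markers were also lower in diabetic libraries, 12596 against 13543 and 24433 against 25676. Those of horizontal and ganglion cell markers were higher, 4159.7 against 4045.2 and 10887 against 10687. The part of these markers in the Slc17a7 value was not tested.

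The other 7 genes had log2 fold changes of diabetic over control between -0.06 for Ctbp2 and 0.07 for Elfn1. For Gjd2 the value was 0.02 ± 0.03, with an interval of 2 SE from -0.04 to 0.09. Cacna1f had -0.01 ± 0.04 and Cacna2d4 0.01 ± 0.03, with intervals of 2 SE from -0.09 to 0.06 and from -0.06 to 0.07. The interval was widest for Elfn1, from -0.08 to 0.21.

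At single time points none of 48 tests passed the adjusted threshold, with log2 fold changes from -0.18 to 0.21 and 2 of 48 unadjusted edgeR p-values under 0.05. Both were for Ctbp2, at ZT1 and ZT17. At ZT1 the diabetic libraries, 4180 to 4695, were all below the control libraries, 4713, 4812, 4824, 5024 and 5324, and the log2 fold change was -0.15 ± 0.06 with an edgeR adjusted p of 0.784. At ZT17 it was -0.14 ± 0.07 with an edgeR adjusted p of 0.55. Over all expressed genes the share called was 0.0105% at ZT1, 0.0209% at ZT5, 0.00523% at ZT9, 0.167% at ZT17 and 0% at ZT13 and ZT21.

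**Figure D4:**
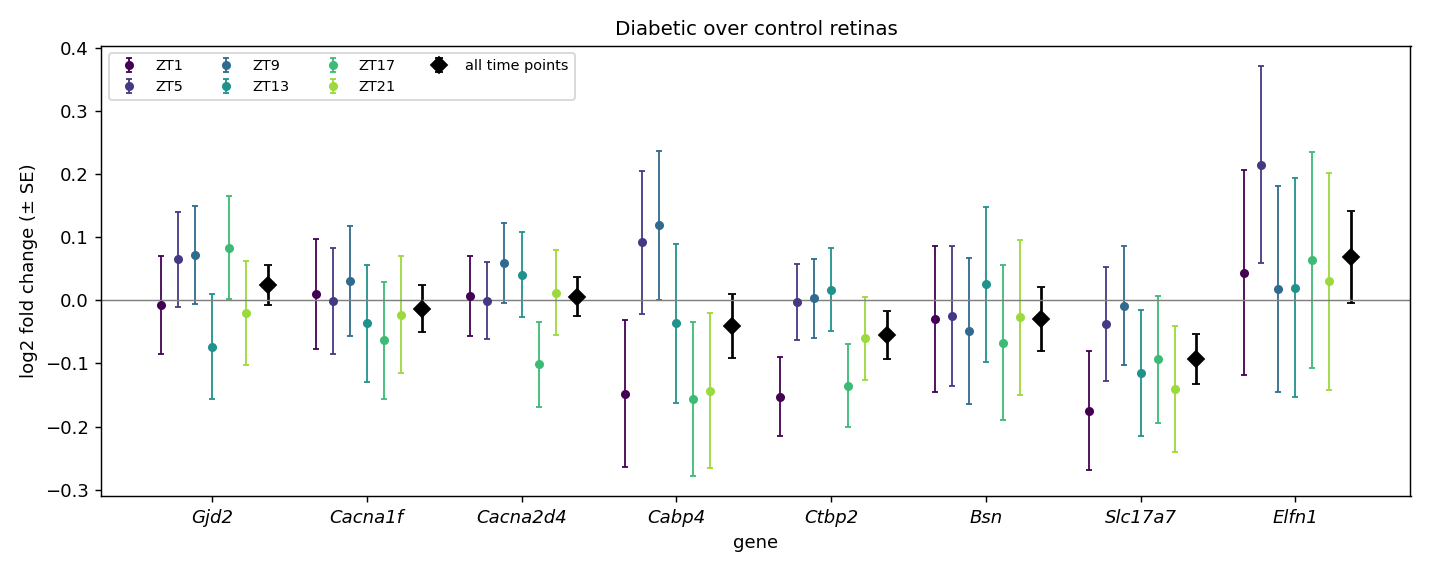
Log2 fold change of diabetic over control retinas (± SE) for the 8 genes at each of the 6 time points (coloured circles) and over all time points (black diamonds). Values lay between -0.18 and 0.21, and those of Slc17a7 were below 0 at each time point.

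Libraries of the same group differed in how their counts depended on the base composition of the genes, and several of the 8 genes moved with it. For each library the slope of log2 count on GC content was taken over 11054 genes with a mean of at least 100 counts, and ranged from -0.22 to 0.45 per 10 points of GC. Bsn has exons of 59.8% GC, above 95.2% of expressed genes, Elfn1 57.7%, Slc17a7 56.6%, Ctbp2 55.1%, Cacna1f 53.6%, Cacna2d4 52.6%, Cabp4 51.3% and Gjd2 48.8%, with a median of 49.0% over expressed genes. Over the 58 libraries, each taken as its deviation from the mean of its group, the correlation with the slope was 0.882 for Bsn, 0.856 for Elfn1, 0.819 for Ctbp2, 0.789 for Cabp4 and 0.784 for Slc17a7. It was 0.360 for Cacna2d4, 0.233 for Cacna1f and -0.526 for Gjd2. Over 11196 genes the central 90% of these correlations lay between -0.873 and 0.836. These correlations describe points that share the library, its depth and its composition.

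The same deviations tied some of the genes together. Bsn and Elfn1 had r = 0.878 over the 58 libraries, Cabp4 and Slc17a7 0.823, and Ctbp2 and Slc17a7 0.813. The channel subunits Cacna1f and Cacna2d4 had r = 0.858, although both had weak correlations with the slope. Gjd2 was negatively correlated with each of the other 7, from -0.593 with Cacna2d4 to -0.050 with Slc17a7. In the 12 libraries with replicate number 4, the highest set of slopes with a median of 0.11, Elfn1 was above its group mean in 11 and Bsn in 10.

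The largest slope of the control libraries, 0.45, and the largest of the diabetic libraries, 0.39, were at ZT17. With the slope as a covariate in the edgeR fit, an alternative added after the data were seen, the ZT17 over ZT5 value of Ctbp2 was 0.24 ± 0.04 in control (adjusted p = 1.14e-05) and 0.16 ± 0.04 in diabetic retinas (adjusted p = 0.00524), beside 9.7% and 11.1% of all genes called. That of Elfn1 in control retinas was 0.19 ± 0.08 with an edgeR adjusted p of 0.17. For Slc17a7 over all time points the value was -0.10 ± 0.03 with an edgeR adjusted p of 0.0104, where 1388 genes or 7.26% of all were called in that fit. With the slope removed before the rhythm test, Gjd2 was added to the same 3 genes in control retinas, Elfn1 was added and Cacna2d4 lost in diabetic retinas, and Ctbp2 was called in each, where 25.9% and 28.7% of all genes were called. The edgeR cosine test with the slope as a covariate instead called Cacna2d4 and Ctbp2 in each genotype, Cacna2d4 in diabetic retinas with an adjusted p of 0.0355, where 13.5% and 21.6% of all genes were called.

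**Figure D5:**
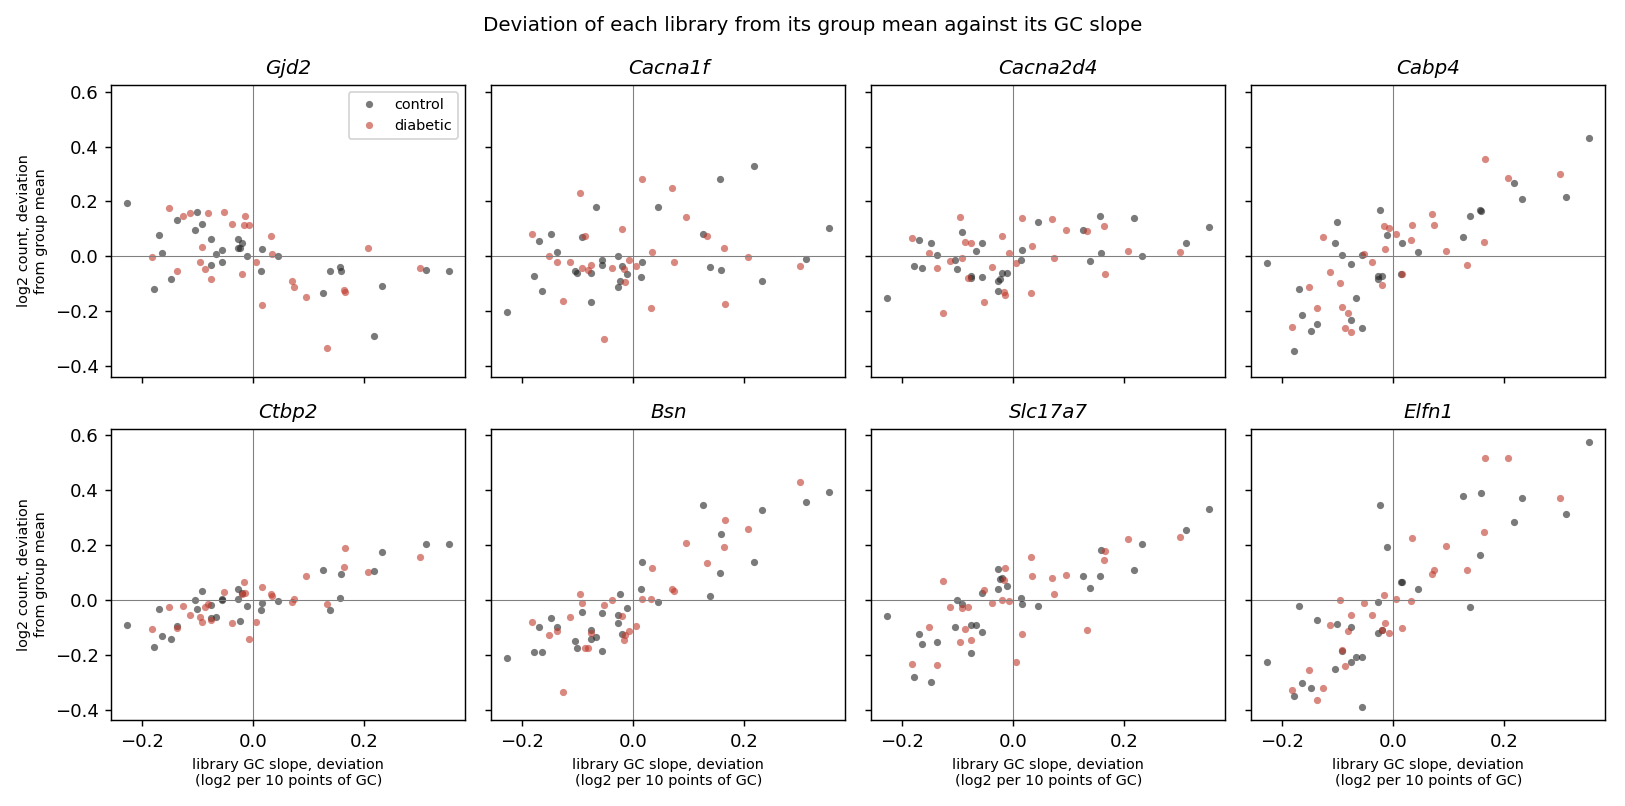
Deviation of the log2 count of each gene from its group mean against the deviation of the library's GC slope, for 30 control (black) and 28 diabetic (red) libraries. Bsn, Elfn1, Ctbp2, Cabp4 and Slc17a7 rise with the slope (r from 0.784 to 0.882), Gjd2 runs the other way (r = -0.526), and the channel genes Cacna1f and Cacna2d4 vary with little relation to it.

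Without the 3 control libraries of high lens signal, an alternative also added after the data were seen, Cacna2d4 and Ctbp2 were still called rhythmic in control retinas (permutation p = 0.00021 and 7e-05), and Cabp4 was not (permutation p = 0.0928). The ZT17 over ZT5 values in control retinas were 0.39 ± 0.06 for Ctbp2 and 0.59 ± 0.16 for Elfn1, with edgeR adjusted p-values of 3.11e-05 and 0.0122, beside 16% of all genes called. The value of Slc17a7 between genotypes was -0.10 ± 0.04, with an edgeR adjusted p of 0.249, beside 2.24% of all genes called.

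The wider machinery was counted in lists chosen by function. The counts stand beside 21.8% of all expressed genes called in control and 23.9% in diabetic retinas, or 8.23% and 10.3% after adjustment, and 49.2% and 51.8% of the genes called had their peak in the dark phase. Of 13 ribbon and active zone genes, 6 were rhythmic in each genotype, all 6 with a peak in the dark phase, and 4 in each after adjustment. Unc13a, a vesicle priming factor, had an amplitude of 17.4% with a peak at ZT20.0 in control (adjusted p = 0.00246, permutation test) and 14.2% at ZT19.4 in diabetic retinas (adjusted p = 0.0206, permutation test). Erc1, an active zone scaffold, had 9.02% at ZT19.7 in control (adjusted p = 0.00271, permutation test) and 5.71% at ZT18.3 in diabetic retinas (adjusted p = 0.142, permutation test). Rims2, which links channels to the release site, had a diabetic permutation p of 0.00274 but a fold of 1.23 between libraries, under the limit.

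Of 20 vesicle cycle and release genes, 7 and 8 were rhythmic, 7 of each with a peak in the dark phase, and 4 and 5 after adjustment. Synj1, which uncoats endocytosed vesicles, led in control retinas with an amplitude of 8.39% and a peak at ZT19.4. In diabetic retinas it had 7.51% at ZT19.05. Stx3, the syntaxin of ribbon synapses, had 8.80% at ZT20.6 in control and 7.54% at ZT20.9 in diabetic retinas. Nsf, which takes SNARE complexes apart, had 6.985% at ZT19.4 in control and 10.1% at ZT19.1 in diabetic retinas. Of 14 presynaptic calcium genes, 4 and 5 were rhythmic, 3 and 4 of them with a dark-phase peak, and 2 and 3 after adjustment, led by Cabp5, a calcium-binding relative of Cabp4 found in bipolar cells, at 12.9% and 15.8%. Itpr1, the calcium release channel of internal stores, had 6.69% and 7.22%.

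Of 16 genes that organize or receive the signal across the cleft, 6 control and 7 diabetic rhythms were called, all with a dark-phase peak, and 5 and 3 after adjustment. Grm6, the mGluR6 receptor that Elfn1 binds, had an amplitude of 18.2% at ZT19.8 and 11.6% at ZT19.6, and Trpm1, the channel it gates, 9.56% and 9.59%. Of 17 gap junction genes, 9 were expressed and 2 were rhythmic in control retinas, none after adjustment. Gja10, connexin 57 of horizontal cells, had 12.4% in control retinas from a mean of 45.0 counts. Tjp1, the scaffold that binds connexin 36, had a control permutation p of 0.0115 but a fold of 1.17 between libraries, under the limit, and Gja1, connexin 43 of glia, had a diabetic permutation p of 0.0677.

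Of 12 listed and 11 expressed genes in the dopamine and cAMP list, 5 and 4 were rhythmic, 3 of each with a dark-phase peak, and 4 and 3 after adjustment. The list also held the cone gene Pde6h, which was among the control calls before and after adjustment (adjusted p = 0.00767, permutation test). Drd4, the dopamine receptor of photoreceptors, had an amplitude of 47.1% with a peak at ZT18.3 in control and 44.7% at ZT17.0 in diabetic retinas, from means of 3340 and 3180 counts, beside the 3.02% and 1.48% of Gjd2 in the same libraries. Drd2 had 25.9% at ZT18.5 in control and 19.5% at ZT17.8 in diabetic retinas. Adcy1, the calcium-stimulated adenylyl cyclase, had 8.26% at ZT10.3 in control and 14.5% at ZT9.92 in diabetic retinas. Between genotypes over all time points, no expressed gene of the first 5 lists passed the edgeR test, where 2.99% of all genes did. With the GC slope as a covariate, where 7.26% of all genes passed, 4 of 16 cleft genes were lower in diabetic retinas (Grm6, Nyx, Dmd and Lrit3, log2 values from -0.15 to -0.08), as was Cplx3 of the vesicle list, while Rimbp2 and Cacnb1 were higher. These genes were named after their values were seen. In the last list Pde6h, the inhibitory phosphodiesterase subunit of cones, was lower in diabetic retinas at -0.14 ± 0.03 on the log2 scale, with an edgeR adjusted p of 0.00173.

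At ZT17 against ZT5 the medians of the lists' log2 fold changes in control and diabetic retinas were 0.12 and 0.10 for the ribbon and active zone list, 0.10 and 0.12 for vesicle release, 0.03 and 0.05 for presynaptic calcium, 0.13 and 0.08 across the cleft, 0.16 and 0.08 for gap junctions and 0.03 and 0.10 for dopamine and cAMP. The counts of calls that follow stand beside 7.42% of all genes higher and 7.66% lower in control and 3.63% and 3.73% in diabetic libraries, or, with the GC slope as a covariate, 9.7% and 11.1% in either direction. In the ribbon and active zone list, 5 genes passed higher and 1 lower in control, and 2 higher in diabetic libraries, and with the covariate 2 and 4 passed higher. In the vesicle list, 3 passed higher and 1 lower in control, and 2 higher in diabetic libraries. With the covariate these were 1 higher and 1 lower, and 3 higher and 1 lower. In the presynaptic calcium list, 2 and 1 passed higher, and with the covariate 2 higher and 1 lower in control and 2 higher in diabetic libraries. In the cleft list, 6 passed higher in control and none in diabetic libraries, and with the covariate 2 higher in control and 1 higher and 1 lower in diabetic libraries. In the dopamine and cAMP list, 3 passed higher and 1 lower in control and 2 higher and 1 lower in diabetic libraries, with the same counts under the covariate.

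The genes whose 12 group means were most like each of the 8, out of 11196 genes with a median of at least 100 counts, were taken by Pearson's r of log2 values. Ctbp2 was nearest to Ankrd6 (r = 0.971), Acot11 (0.959) and Egln1 (0.956). Gjd2 was nearest to Rdx (0.911), Cdk17 (0.892) and Tmem170b (0.877). Cacna2d4 was nearest to Ano2 (0.956), the calcium-activated chloride channel of photoreceptor terminals, with Cds1 (0.937) and Tmem132d (0.931). Cacna1f was nearest to Zfp324 (0.965), Traf7 (0.955) and Ecsit (0.953), and Cabp4 to Ppm1n (0.930), Rrp7a (0.924) and Zbtb40 (0.923).

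Bsn was nearest to Prrc2b (0.986), the vesicle SNARE Vamp2 (0.981) and Tubb4a (0.981), and Elfn1 to Gatad2a (0.987), Zfp319 (0.981) and Ppp2r5d (0.971). Slc17a7 was nearest to Kif1bp (0.944), Rpl19 (0.942) and Nop53 (0.939). Each value rests on 12 points whose libraries are shared between the genes, and none was a test.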

How the data were processed

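Total RNA of single retinas, depleted of ribosomal RNA, was sequenced in 58 libraries. The authors aligned the reads with STAR 2.7.4a and counted them per gene with HTSeq 0.11.1 on GRCm38, and the deposited values are raw read counts. The strand setting of the counting is not given in the sources used here.

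Groups came from the sample labels. Nothing in the labels ties a replicate number to a shared animal or day, and p-values measure the spread between these libraries. Genes with a median above 4 counts after division by size factors were kept. Contrasts were fitted with edgeR 4.0.16 (TMM, quasi-likelihood, R 4.3.3) on 12 groups, with Benjamini-Hochberg adjustment over 19120 genes and a threshold of 0.05. Rhythm was tested by a re-implementation of empirical JTK_CYCLE with 30 waveforms and 1000000 shuffles (Python 3.11.15, numpy 2.4.6), and amplitude and peak came from a cosine fit. Scripts were tested on simulated data. DESeq2 1.42.0, other filters, a replicate block and left-out libraries were alternatives. Total counts of 7773117 to 22147398 per library set the precision of low genes, and Cabp4 had at least 236 reads in every library.

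The 8 genes and the gene lists were chosen with earlier results of these data known. Genes named beyond the 8 were the list members with the smallest rhythm p-values in each genotype, and the genes of highest correlation. Some genes of the lists are not reported here. Pde6h was named because it alone of its list passed the genotype test, and Nyx, Dmd, Lrit3, Cplx3, Rimbp2 and Cacnb1 because they passed it with the GC slope as a covariate. Exons, lengths and GC content came from Gencode M21 on GRCm38.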

Additional observations from a re-analysis of the deposited data

Results flagged for a closer look

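In 4 of 96 groups a single library stood apart from the rest of its group by Dixon's criterion, and chance marks about 1 in 20 groups. Bsn reached 5877 normalized counts in control replicate 4 at ZT1, where the next library had 4674. Cacna1f reached 8185 in control replicate 5 at ZT5, with the next at 6726, and 7194 in control replicate 1 at ZT21, with the next at 6137. Elfn1 reached 2397 in diabetic replicate 4 at ZT5, with the next at 1562. The GC slopes of these 4 libraries were 0.13, 0.089, -0.073 and 0.147 in the same order, and their part in the values was not tested.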

How the results depend on the processing

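The number of the 8 genes that differed between genotypes over all time points was 0, and 1 (Slc17a7) with the library GC slope as a covariate, alone or with a replicate block. At ZT17 against ZT5 in control retinas it was 2, with 4 under the replicate block (Bsn, edgeR adjusted p = 0.0245, and Cabp4, 0.0444, added), 1 with the GC slope and 1 to 4 with a library left out. In diabetic retinas it was 1, with 0 without the filter on low counts, 2 with the block and the GC slope, and 0 to 2 with a library left out. Rhythmic genes in control retinas were 3, with 1 by the fold of time point means, and 2 to 5 with a library or time point left out (5 without ZT9). In diabetic retinas they were 2, with 1 after adjustment, in the edgeR cosine test, in the edgeR test over 6 time points and without ZT1 or ZT21, 0 by the fold of time point means, and 1 to 3 with a library left out. The labels do not say what a replicate number shares. Over 289 pairs of the same number the median correlation of deviations was 0.222 (-0.688 to 0.845, 179 over 0.1), against -0.034 over 1251 other pairs, and 26 of 58 libraries correlated best with their own number. The edgeR cosine test with the block added Elfn1 in control (adjusted p = 0.0248) and Cacna2d4 in diabetic retinas (0.0448) to the calls of that test without it, and with the block and the GC slope it added Cacna2d4 (0.027) and Bsn (0.0178) in diabetic retinas. With the GC slope, and with the slope and block, the log2 value of ZT17 over ZT5 reversed to -0.037 and -0.047 for Cacna1f in control and to -0.092 and -0.084 for Cabp4 in diabetic retinas, and the difference between genotypes to -0.016 and -0.017 for Gjd2, 0.059 and 0.066 for Bsn and 0.020 and 0.029 for Slc17a7, and with the slope alone to 0.0072 for Elfn1. With a library left out, the log2 value of diabetic over control ranged from -0.0020 to 0.0159 for Cacna2d4, that of ZT17 over ZT5 from -0.0134 to 0.1014 for Gjd2 and -0.0828 to 0.0709 for Cacna1f in control, and from -0.141 to 0.028 for Cacna1f and -0.0859 to 0.1202 for Cabp4 in diabetic retinas, and the difference between genotypes from -0.0468 to 0.0680 for Gjd2, -0.1499 to 0.0292 for Cacna1f, -0.2031 to 0.0613 for Bsn, -0.1354 to 0.0106 for Slc17a7 and -0.2867 to 0.0043 for Elfn1. None of these reversed values passed a test, and the cause was not tested.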
